A study of Gallus gallus with 24 samples.

Results

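The ileum transcriptomes of 6 broilers fed magnolol and 6 broilers fed the basal diet were compared after both groups had been challenged with Salmonella pullorum. These 12 birds were chosen by their labels alone, out of 24 birds in the 4 groups of the whole series. The comparison was made across the 13454 genes with a mean expression of at least 1 FPKM (fragments scaled to transcript length and to library size) over the 12 birds, out of 25339 genes in the table. Of the genes tested, 3016 carried no symbol.

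Magnolol is a phenolic compound of magnolia bark, and honokiol is its isomer, which carries the hydroxyl groups at other positions of the same pair of linked rings. S. pullorum is the agent of pullorum disease, which infects chicks through the gut. The epithelium of the ileum is renewed from dividing cells in the crypts, whose daughters take on digestive enzymes and transporters as they move up the villus. Chickens have no lymph nodes of the mammalian kind, and much of their gut immunity rests on diffuse lymphocytes and on lymphoid follicles in the intestinal wall, where B cells are drawn in by the chemokine CXCL13 and its receptor CXCR5.

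All birds were Arbor Acres broilers killed at 14 d, and 1 bird was taken from each of 6 cages per group. The SP birds ate a maize and soybean basal diet and received 0.5 mL of S. pullorum suspension on day 5. The SPM birds received the same suspension on a diet that also held 300 mg/kg of magnolol, and the SPH birds on one that held 300 mg/kg of honokiol. The CTL group was fed the basal diet and dosed with PBS, and its cages stood apart from those of the challenged birds, so that place and challenge cannot be told apart where CTL values are given. The labels call the tissue ileum, although their protocol also speaks of retinas. The enterocyte genes APOA1 (apolipoprotein A1, a part of lipoprotein particles) and FABP1 (a fatty acid binding protein) had medians of 4953 and 4014 FPKM in SP and of 5647 and 4509 FPKM in SPM.

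Depth was between 14861134 and 19435410 reads per bird. The labels give no sex, but transcripts of the W chromosome, which hens carry, were present in 3 of 6 SP birds, 4 of 6 SPM birds, 3 of 6 SPH birds and 6 of 6 CTL birds. Mitochondrial transcripts took 2.74% to 3.60% of the reads in SP and 3.36% to 5.26% in SPM. The values are of whole tissue, so fewer cells of a type and less RNA per cell cannot be told apart.

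Across all genes the differences were about balanced between the directions. The median difference (SPM minus SP, in mean log2(FPKM + 0.1)) was 0.00 over the genes tested, with 6837 genes higher and 6617 lower in SPM. The limits were set at 0.05 for the adjusted p and at 0.5 for the log2 difference in either direction. At these adjusted limits limma with Benjamini-Hochberg adjustment called 0 genes (0% of those tested), with a smallest adjusted p of 0.0664. At a limma adjusted p under 0.1 there were 116 genes, 54 of them past the fold limit. Of the 13454 genes tested, 2337 had an unadjusted limma p under 0.05. By limma-voom on the reads the count at the adjusted limits was also 0. At the same fold limit and an unadjusted p under 0.05, which are called the unadjusted limits here, 279 genes were higher (2.07% of those tested) and 404 lower (3%). With every bird scaled to the same total FPKM, this split was 200 higher and 484 lower. The 6 birds of one group lay wholly above those of the other for 43 genes higher in SPM (0.32%) and for 85 genes lower in SPM (0.632%).

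The count at the adjusted limits depended on a single bird. Without SP replicate 2 it was 204 genes, 67 higher and 137 lower in SPM, while leaving out any other of the 12 birds gave between 0 and 4 genes. Of the SP birds, replicate 2 had the lowest summed expression of the replication genes described next (426 FPKM, against 577 to 703 FPKM in the others) and the highest UGT1A1. Restricted to the birds with W transcripts, 3 SP and 4 SPM, the fit called 323 genes, 131 higher and 192 lower, of which 117 were also among the 204. SP replicate 2 has no W transcripts, so this set of birds leaves it out as well. Restricted to the birds without them, 3 SP and 2 SPM, it called 1 gene. The test of the difference between these sets of birds (an interaction term in limma) called 0 of 13454 genes, with a smallest Benjamini-Hochberg adjusted p of 0.0940 and 1240 genes at an unadjusted p under 0.05.

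**Figure D1:**
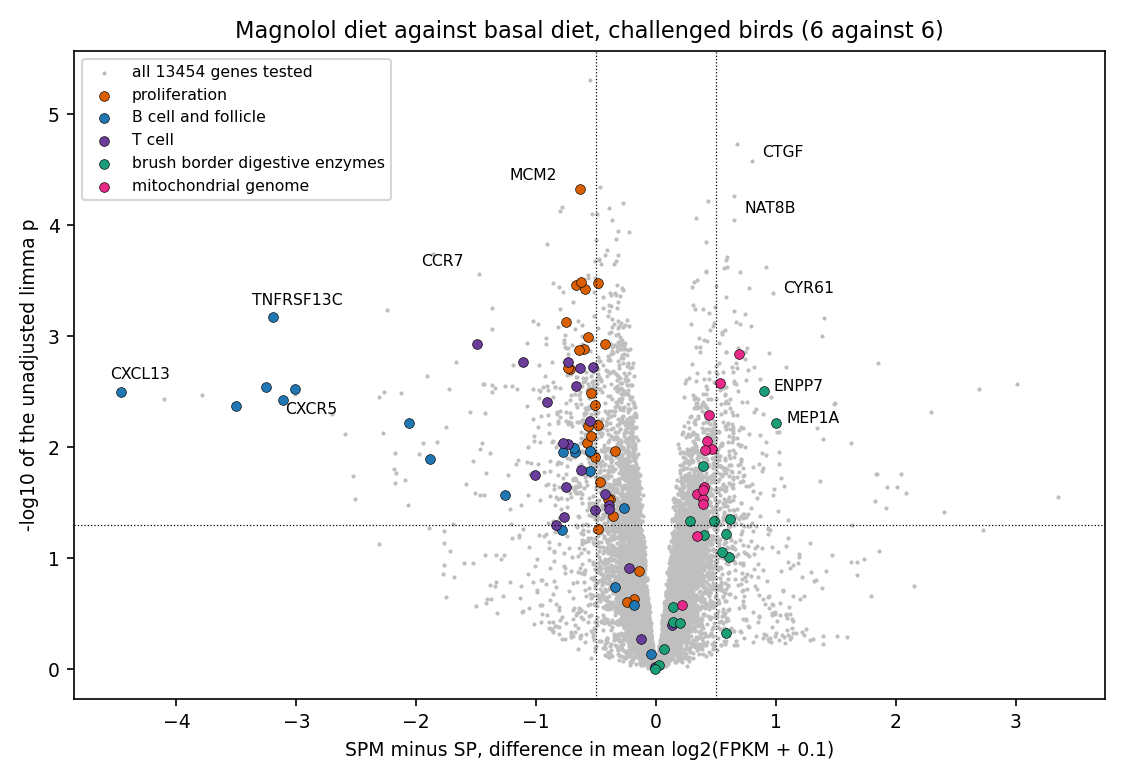
Difference between SPM and SP in mean log2(FPKM + 0.1) (x axis) against the −log10 of the unadjusted limma p (y axis) for the 13454 genes tested, 6 birds against 6. Dotted lines mark the unadjusted limits, and coloured points are the members of 5 gene lists. Replication genes and B and T cell genes lie to the left, and brush border and mitochondrial genes to the right.

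Genes of DNA replication and cell division were lower in SPM throughout the list. All 29 members tested were lower and 17 of them were past the unadjusted limits, against 3% of all genes, with a median log2 difference of -0.54 against 0.00 over all genes. The groups overlapped for all 29, where 0.632% of all genes were lower without overlap. ORC5, SHMT1, DCK, PPAT, E2F7, RAN and ANP32B, given below, are not members of this list. They were named for their own differences between these birds. Summed over the list, the SP birds had 426 to 703 FPKM (median 624) and the SPM birds 322 to 502 FPKM (median 427), and the CTL birds had a median of 527 FPKM. The sums of the groups overlapped only through SP replicate 2.

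MCM2, a subunit of the helicase that opens DNA at replication origins (ENSGALG00000006037, chromosome 12, 10137401 to 10148820 in the deposited table), was between 14.6 and 21.1 FPKM in SP (median 19.7) and between 8.65 and 15.4 FPKM in SPM (median 12.4). The highest SPM bird lay above only the lowest SP bird. The log2 difference was -0.63 ± 0.13 (SE, n = 6 and 6; limma adjusted p = 0.0760, exact permutation p = 0.00433). Further subunits of that helicase stood alike, with log2 differences of -0.62 for MCM3, -0.67 for MCM5 and -0.59 for MCM6. MCM3 was between 9.17 and 15 FPKM in SP and between 5.95 and 10.2 FPKM in SPM. ORC5, a subunit of the complex that marks the origins, was between 4.75 and 6.14 FPKM in SP and between 2.87 and 4.68 FPKM in SPM, so that the groups did not overlap (log2 difference -0.51 ± 0.12).

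Genes that supply the building blocks of DNA stood with them. SHMT1, which hands 1-carbon units from serine to folate, was between 2.76 and 6.09 FPKM in SP and between 2.48 and 3.61 FPKM in SPM (log2 difference -0.78 ± 0.16, limma adjusted p = 0.0760). Every SPM bird lay below 5 of the 6 SP birds, and the SP bird among them was replicate 2. DCK, a kinase of the deoxynucleoside salvage pathway, was between 14.1 and 19.5 FPKM in SP and between 9.89 and 13.8 FPKM in SPM, with no overlap and a log2 difference of -0.53 ± 0.11. PPAT, the first enzyme of purine synthesis, had medians of 13.7 FPKM in SP and 9.15 FPKM in SPM (log2 difference -0.57 ± 0.13).

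Among regulators of the cell cycle, CDK1, the kinase that drives entry into mitosis, was between 49.3 and 89.4 FPKM in SP and between 35.8 and 63.0 FPKM in SPM (log2 difference -0.60 ± 0.17, exact permutation p = 0.0108). PCNA, the sliding clamp of the DNA polymerases, had medians of 78.9 and 55.7 FPKM and a log2 difference of -0.42 ± 0.11, short of the fold limit. E2F7, a repressor among the E2F factors of the S phase, was between 2.13 and 3.12 FPKM in SP and between 1.26 and 2.04 FPKM in SPM, without overlap. RAN, the GTPase of nuclear transport, and ANP32B, a histone chaperone, were also lower, by log2 differences of -0.34 and -0.51, and for ANP32B the groups did not overlap (110.5 to 136 FPKM against 65.1 to 110 FPKM).

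**Figure D2:**
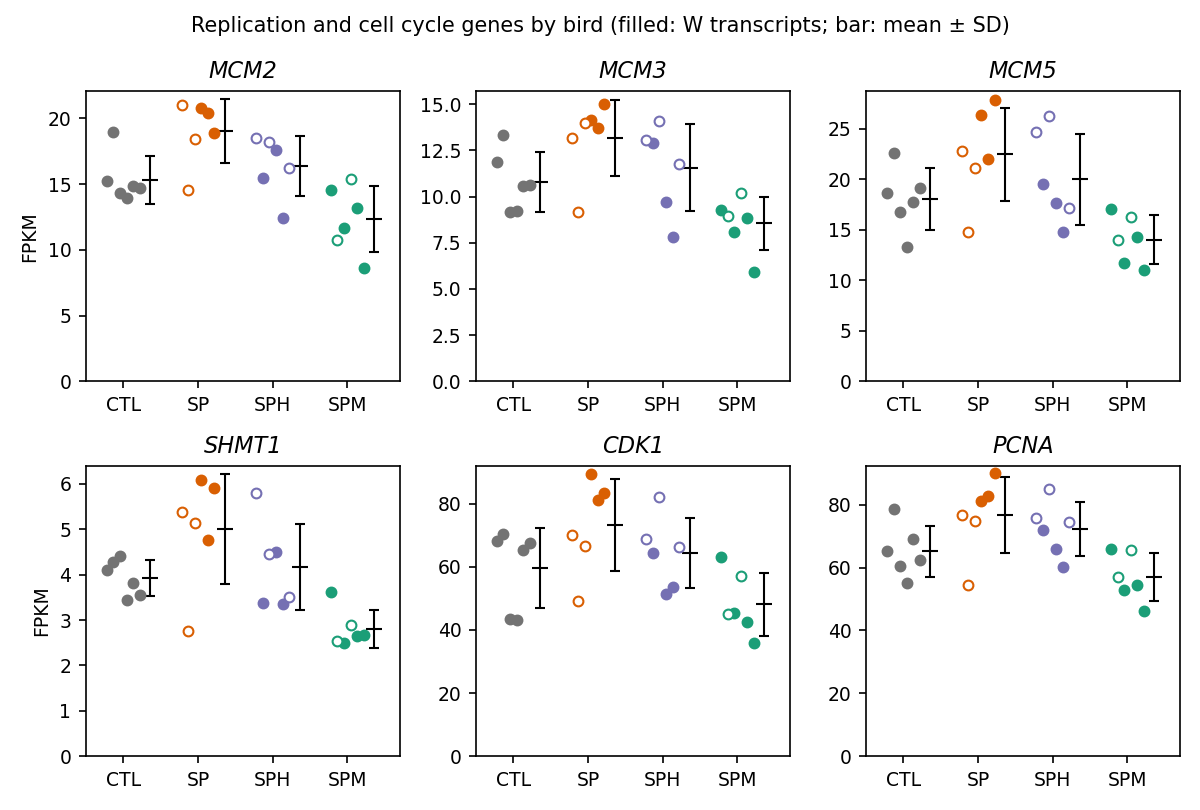
FPKM of 6 replication and cell cycle genes (y axes) in each bird of the 4 groups (x axes). Each point is a bird, filled where W transcripts were present, and the bar gives the mean ± SD of 6 birds. For MCM2 the SPM birds lie between 8.65 and 15.4 FPKM, and the lowest SP bird, at 14.6 FPKM, is replicate 2.

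The median of the replication list was -0.84 among birds with W transcripts and -0.09 among those without. No test was made of the difference between these medians, and the second set, 3 SP against 2 SPM birds, holds SP replicate 2. For MCM2 the log2 differences were -0.76 and -0.47, and for CDK1 -0.89 and -0.27, while the interaction of neither passed (adjusted p = 0.833 and 0.559 by limma with Benjamini-Hochberg adjustment). Without SP replicate 2, 14 of the 29 genes of the list were past the adjusted limits, against 204 of all 13454 genes. That bird had the lowest sum of this list among the SP birds. Leaving out each bird in turn moved the list median between -0.64 and -0.42.

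B cell and follicle genes showed the largest differences in size. All 19 members tested were lower in SPM and 14 were past the unadjusted limits, against 3% of all genes, with a median log2 difference of -0.79. Some members passed the filter on mean expression only through SP, such as TNFRSF13C, with at most 0.875 FPKM in SPM. For such members the filter itself favoured a lower SPM value, so these counts are in part fixed by it. CXCL13, the chemokine that draws B cells into follicles (ENSGALG00000045607, chromosome 4, 34983796 to 34985067), was between 5.23 and 83.3 FPKM in SP (median 21.9) and between 0 and 16.3 FPKM in SPM (median 0.221). A single SPM bird, replicate 5, had 16.3 FPKM, and the 5 others had at most 5.33 FPKM. The log2 difference was -4.46 ± 1.36 (limma adjusted p = 0.115, exact permutation p = 0.0173). The related entry CXCL13L2 had medians of 9.71 and 0.785 FPKM.

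Receptors of B cells were lower as well. CXCR5, the receptor of CXCL13, was between 1.31 and 16.8 FPKM in SP and between 0.0879 and 2.88 FPKM in SPM (log2 difference -3.01 ± 0.91). TNFRSF13C, the receptor of the B cell survival factor BAFF, had a median of 1.70 FPKM in SP and of 0.0365 FPKM in SPM, where the lowest bird was at 0 (log2 difference -3.20 ± 0.81, limma adjusted p = 0.0998). CD72, a coreceptor of B cells, had medians of 3.62 and 0.182 FPKM. For CD72AG the groups did not overlap, with 1.27 to 5.64 FPKM in SP and 0.212 to 1.17 FPKM in SPM (log2 difference -2.24 ± 0.56).

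These follicle genes varied widely among SP birds. The list summed to 371 FPKM in SP replicate 5, 232 FPKM in replicate 6 and 202 FPKM in replicate 1, and to at most 138 FPKM in replicates 2, 3 and 4. In SPM the sums ran from 82.0 to 121 FPKM, the highest in replicate 5. The CTL birds had a median of 102 FPKM and a highest bird of 307 FPKM, so the CTL group also held a bird rich in these transcripts. The list median was -1.17 among birds with W transcripts and -0.33 among those without, and it lay between -0.94 and -0.58 when each bird was left out in turn.

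T cell genes were lower as well, by smaller amounts. Of 23 members tested, 22 were lower in SPM and 15 were past the unadjusted limits, against 3% of all genes, and the median log2 difference was -0.64. TCF7, a transcription factor of naive T cells, was between 7.17 and 19.4 FPKM in SP and between 2.22 and 9.17 FPKM in SPM (log2 difference -1.49 ± 0.40). CD4, the coreceptor of helper T cells, was between 4.09 and 14.1 FPKM in SP and between 2.96 and 5.88 FPKM in SPM (-0.91 ± 0.28, exact permutation p = 0.0152). The T cell receptor subunits CD3D and CD3E, the 2 most abundant members, had smaller log2 differences of -0.42 and -0.39. ZAP70, a kinase of the same receptor, had medians of 10.6 and 6.01 FPKM (log2 difference -0.73).

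Receptors that share the common gamma chain, which carry the signals of IL-2, IL-7 and IL-21, were lower in 8 of 8 members, with 4 past the unadjusted limits, against 3% of all genes, and a median of -0.52. IL2RA, the alpha chain of the IL-2 receptor, was between 13.6 and 19.7 FPKM in SP and between 7.77 and 12.3 FPKM in SPM, without overlap (log2 difference -0.62 ± 0.18, limma adjusted p = 0.111). IL21R had medians of 7.77 and 2.88 FPKM (log2 difference -1.37 ± 0.36), and IL2RG, the shared chain itself, of 41.3 and 26.0 FPKM (-0.60 ± 0.19).

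CCR7, which brings lymphocytes and dendritic cells to the T cell zones of lymphoid tissue, was between 7.92 and 19.6 FPKM in SP and between 1.92 and 9.22 FPKM in SPM (log2 difference -1.48 ± 0.34, limma adjusted p = 0.0864). Only SPM replicate 5 lay within the range of SP. CCL19, a ligand of CCR7, has 2 neighbouring entries on the Z chromosome, whose reads may not be fully separable. The entry ENSGALG00000046192 had medians of 93.5 FPKM in SP and 15.5 FPKM in SPM (-2.27 ± 0.69), and the entry ENSGALG00000028256 had medians of 79.5 and 41.8 FPKM (-0.83 ± 0.27).

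Genes of IgA production were lower in 24 of 25 members, with 9 past the unadjusted limits, against 3% of all genes, and a median of -0.39. Several of these are also B or T cell members. ITGA4 and ITGB7, whose proteins pair as the gut homing integrin, had log2 differences of -0.99 and -1.75. Of the 12 leukocyte integrin and adhesion genes, however, 7 were higher in SPM, with a median of 0.15. Past the unadjusted limits were 3 of the 12, all lower, against 3% of all genes. JCHAIN, which joins IgA into polymers, was between 46.2 and 545 FPKM in SP and between 42.7 and 139 FPKM in SPM, with overlapping groups (log2 difference -0.89 ± 0.55, exact permutation p = 0.167). PIGR, the receptor that carries polymeric IgA across the epithelium, was between 233 and 590 FPKM in SP and between 167 and 375 FPKM in SPM, with overlapping groups (exact permutation p = 0.0866). JCHAIN was higher in SPM among birds without W transcripts, by a log2 difference of 0.22.

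Myeloid genes were lower in part. Of 23 macrophage and dendritic cell genes, 19 were lower in SPM and 7 were past the unadjusted limits, against 3% of all genes, with a median of -0.29. SPI1, the PU.1 factor of myeloid and B cells, was between 25.4 and 83.4 FPKM in SP and between 21.4 and 30.5 FPKM in SPM (log2 difference -0.75 ± 0.24). CSF1R, the receptor of macrophage growth factors, had medians of 25.5 and 20.3 FPKM (log2 difference -0.34). Of 16 toll-like receptor and inflammasome genes, which sense bacterial products and relay the signal, 11 were lower and 5 higher. Past the unadjusted limits were 3, all lower, against 3% of all genes, and the median was -0.11. TLR1A had medians of 6.34 and 3.21 FPKM and TLR2B of 2.24 and 0.952 FPKM. In the TNF family 21 of 29 members were lower and 7 were past the unadjusted limits, all lower, against 3% of all genes. Among the 7 was TNFRSF13C, which is also counted with the B cell genes and passed the filter only through SP. TNFRSF8 and TNFSF8, a receptor and its ligand, were among them too, with log2 differences of -2.13 and -0.97. The groups did not overlap for 1 member of the family, which was higher in SPM, where 0.32% of all genes were higher without overlap. Summed over the family, the medians were 634 FPKM in SP and 654 FPKM in SPM. IL20RA, a chain of receptors of the IL-20 family, had medians of 7.83 and 2.75 FPKM (log2 difference -1.23 ± 0.48).

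Of the entries tested, 21 belong to genes that the study names as lower with magnolol and 6 to genes named as higher. Each entry of CCL19 was counted. The study called its genes with DESeq2 at an adjusted p under 0.05 and the same fold limit, and measured some of them by RT-qPCR as well. At the adjusted limits 0 genes were called here. Of the 21 and 6 entries, 18 and 5 were past the unadjusted limits, a looser threshold, against 3% and 2.07% of all genes. This is no independent evidence, since those genes were chosen on these birds.

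**Figure D3:**
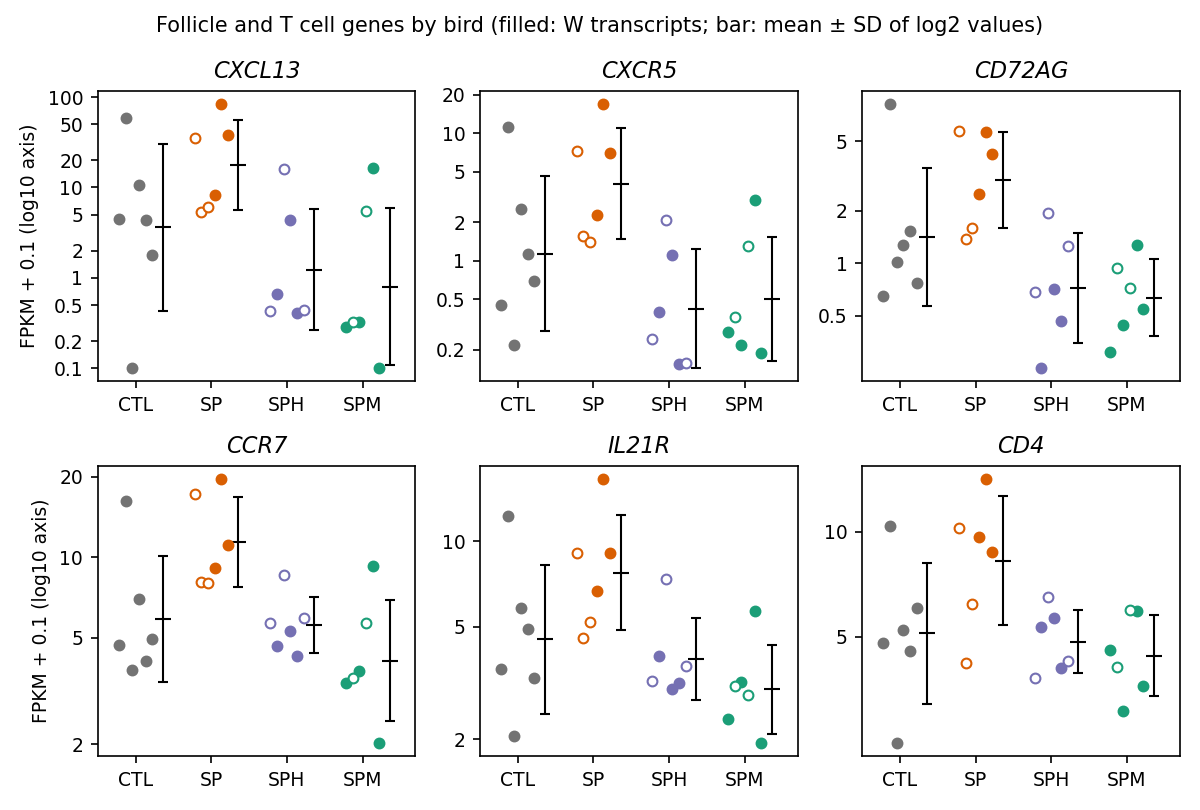
Expression of 6 follicle and T cell genes as FPKM + 0.1 on a log10 axis (y axes) in each bird of the 4 groups (x axes). Each point is a bird, filled where W transcripts were present, and the bar gives the mean ± SD of log2 values of 6 birds. CXCL13 lies between 5.23 and 83.3 FPKM in SP, and SPM replicate 5 is the highest SPM bird with 16.3 FPKM.

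Among the named genes higher in SPM, CTGF had the smallest p. This protein of the CCN family, which is induced in wound repair and by YAP (ENSGALG00000037402, chromosome 3, 57245588 to 57248925), was between 12.0 and 17.3 FPKM in SP (median 14.8) and between 18.6 and 32.6 FPKM in SPM (median 27.6). Every SPM bird lay above every SP bird. The log2 difference was 0.80 ± 0.15, or 1.74-fold (limma adjusted p = 0.0760, exact permutation p = 0.00216, which is the lower bound of that test with groups of 6). CYR61, of the same family, was between 4.78 and 10.4 FPKM in SP and between 10.7 and 20.9 FPKM in SPM, again without overlap (log2 difference 0.98 ± 0.24). In CTL their means were 18.4 and 9.29 FPKM.

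Further genes higher in SPM had diverse roles, and for the first 4 named here the groups did not overlap. NAT8B, an acetyltransferase, was between 32.2 and 50.1 FPKM in SP and between 51.9 and 75.9 FPKM in SPM (log2 difference 0.65 ± 0.13, limma adjusted p = 0.0760). MAP3K6, a stress-activated kinase, was between 3.75 and 5.98 FPKM in SP and between 7.14 and 9.77 FPKM in SPM (0.65 ± 0.14). CRIM1, a membrane protein that binds BMPs, and INAVA, a regulator of epithelial junctions and innate signalling, had log2 differences of 0.50 and 0.48. IGFBP7, a secreted binding protein, overlapped slightly, with 59.6 to 80.6 FPKM in SP and 80.2 to 137 FPKM in SPM (0.60 ± 0.14). HHIP, which binds hedgehog ligands, and EDN3, an endothelin peptide, had overlapping groups and log2 differences of 0.58 and 0.74.

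Genes of stroma and vessels had their highest sums in 3 SPM birds. Fibroblast and matrix genes summed to 2486, 2433 and 2636 FPKM in SPM replicates 2, 5 and 6, and to 1466 to 1652 FPKM in the 3 other SPM birds, within the SP range of 1391 to 1716 FPKM. Endothelial genes summed to 312, 263 and 338 FPKM in those 3 birds and to at most 208 FPKM in the other SPM birds, with 176 to 207 FPKM in SP. All 26 fibroblast and matrix genes were higher in SPM with 0 past the unadjusted limits, and the median was 0.31. COL3A1, a fibrillar collagen, had medians of 287 and 382 FPKM, and SPARC, a matrix glycoprotein, of 353 and 439 FPKM, both with overlapping groups (exact permutation p = 0.0909 and 0.115). Of 15 endothelial genes 14 were higher and 2 were past the unadjusted limits, against 2.07% of all genes. The 2 endothelial genes were EGFL7, a vessel-secreted factor (12.7 to 19.1 FPKM in SP, 13.5 to 35.6 FPKM in SPM), and CLDN5, the claudin of endothelial tight junctions (9.73 to 12.9 FPKM and 11.03 to 21.97 FPKM). All 5 erythrocyte genes were higher, with 0 past the unadjusted limits and sums of 181 to 458 FPKM in SP and 236 to 851 FPKM in SPM. The part of these cell types in the other differences was not tested.

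Brush border genes, a list of digestive enzymes and of structural proteins of the microvilli such as villin, were higher in 16 of 17 members, with 3 past the unadjusted limits against 2.07% of all genes and a median of 0.40. ENPP7, the alkaline sphingomyelinase that digests dietary sphingomyelin (ENSGALG00000013743, chromosome 18, 9638646 to 9641916), was between 323 and 992 FPKM in SP (median 447) and between 608 and 1491 FPKM in SPM (median 1035). Its log2 difference was 0.90 ± 0.27 (limma adjusted p = 0.115, exact permutation p = 0.0260). Without SP replicate 4, 5 or 6 or SPM replicate 5 the exact permutation p was 0.0519 to 0.0541. MEP1A, a subunit of the protease meprin, had medians of 554 and 1188 FPKM (1.00 ± 0.33), and its partner MEP1B of 111 and 181 FPKM (0.62 ± 0.29). For MEP1A the exact permutation p was 0.0519 to 0.0541 without SPM replicate 1, 3 or 5. For MEP1B it was not under 0.05 over all birds compared, and was 0.0498 without SPM replicate 6. ANPEP, an aminopeptidase and one of the 2 most abundant members, had medians of 901 and 1310 FPKM and overlapping groups (exact permutation p = 0.0671).

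The brush border list had a median of 0.80 among birds with W transcripts and of -0.11 among the 3 SP and 2 SPM birds without them, and the difference between these medians was not tested. For ENPP7 the log2 differences were 1.66 (limma adjusted p = 0.0213) and -0.14, and for SAT1, the catabolic enzyme of polyamines, 1.19 and -0.25. The interaction of neither passed, with a limma adjusted p of 0.189 for both. Lipid absorption genes had medians of 0.60 and -0.22 in those sets of birds and of 0.28 over all, with 18 of 21 higher and 0 past the unadjusted limits. The 3 SP birds with W transcripts had brush border sums of 3048 to 3810 FPKM, against 4264 to 6257 FPKM in the 3 SP birds without them.

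Nutrient transporters were higher in 20 of 24 members, 6 of them past the unadjusted limits, against 2.07% of all genes, with a median of 0.28. The largest difference of the list was in the other direction, -1.11 for SLC26A3, which was not past the unadjusted limits. SLC3A1 and SLC7A9, which together form the cystine and dibasic amino acid transporter, had medians of 100.1 and 286 FPKM in SP and of 173 and 414 FPKM in SPM. For SLC3A1 the log2 difference was 0.55 ± 0.15 (limma adjusted p = 0.104). For SLC7A9 the exact permutation p was 0.0541 to 0.0628 without SP replicate 1, 4 or 6 or SPM replicate 1, 3 or 4. SLC5A11, an inositol transporter, was between 53.6 and 89.5 FPKM in SP and between 79.7 and 138 FPKM in SPM (0.51 ± 0.18). Genes of xenobiotic metabolism, a list of enzymes, transporters and nuclear receptors that handle foreign compounds, were higher in 31 of 36 members with 2 past the unadjusted limits, against 2.07% of all genes, and a median of 0.27. UGT1A1, which couples phenols to glucuronic acid, had medians of 121 and 180 FPKM (0.53 ± 0.20), with 231 FPKM in SP replicate 2 and at most 127 FPKM in the other SP birds. Its exact permutation p was 0.0606 to 0.0887 without SP replicate 1, 3, 4, 5 or 6 or SPM replicate 1, 3 or 5. CYP2C23a, a cytochrome P450, had medians of 209 and 301 FPKM and overlapping groups (exact permutation p = 0.119).

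The 13 protein-coding genes of the mitochondrial genome were all higher, with 2 past the unadjusted limits, against 2.07% of all genes, and a median of 0.40. Over all 32 entries of the mitochondrial chromosome that were tested, which include ribosomal and transfer RNAs, 25 were higher. Of the 32 tested, 6 were higher past the unadjusted limits, against 2.07% of all genes. ATP8, a subunit of ATP synthase, was between 196 and 345 FPKM in SP and between 323 and 571 FPKM in SPM (0.69 ± 0.19). ND1, a subunit of complex I, had medians of 1317 and 1918 FPKM (0.53 ± 0.16), and MT-CO1, the most abundant of them, of 7170 and 9659 FPKM (0.44 ± 0.14, exact permutation p = 0.00433). SPM replicate 6 had the highest ATP8. The nuclear genes of oxidative phosphorylation had a median of 0.01, with 32 of 53 higher and 0 past the unadjusted limits in either direction. Under quantile normalization the mitochondrial median was 0.29 and the difference of MT-CO1 was 0.00, because that gene takes the top rank in every bird.

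**Figure D4:**
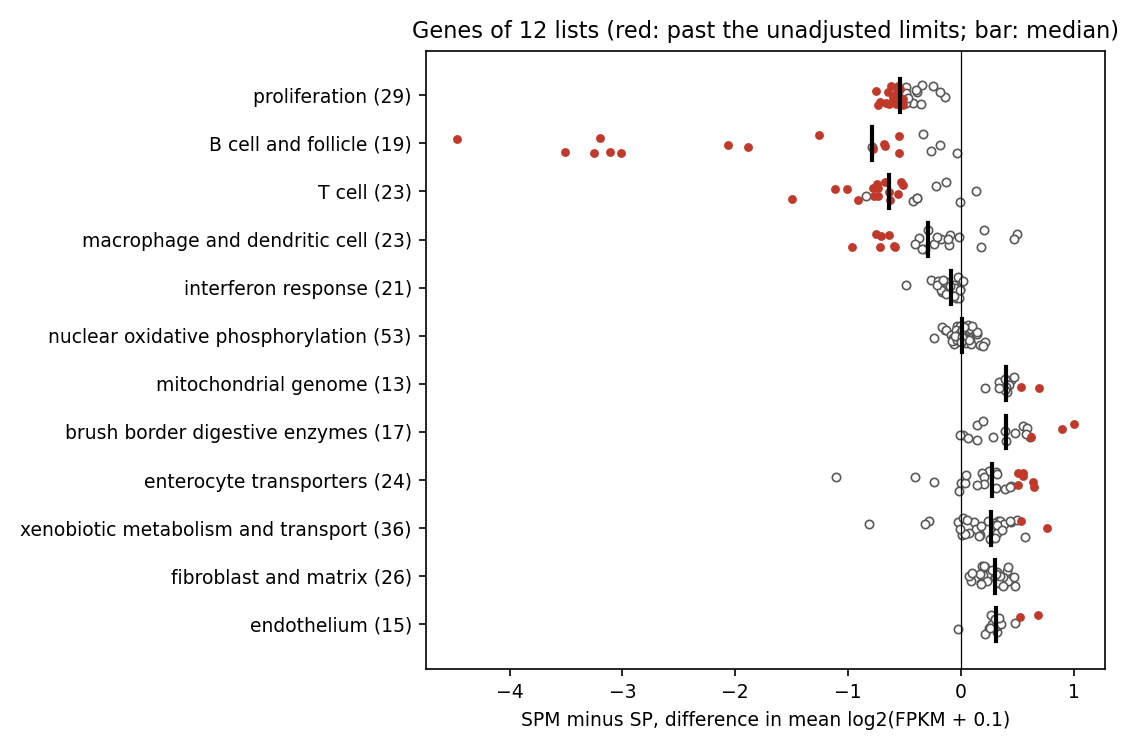
Differences between SPM and SP in mean log2(FPKM + 0.1) (x axis) for the members of 12 gene lists (y axis, with the number of members tested). Each point is a gene, red where past the unadjusted limits, and the bar is the list median, which ranges from -0.79 for B cell and follicle genes to 0.40 for the mitochondrial genome and the brush border.

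**Figure D5:**
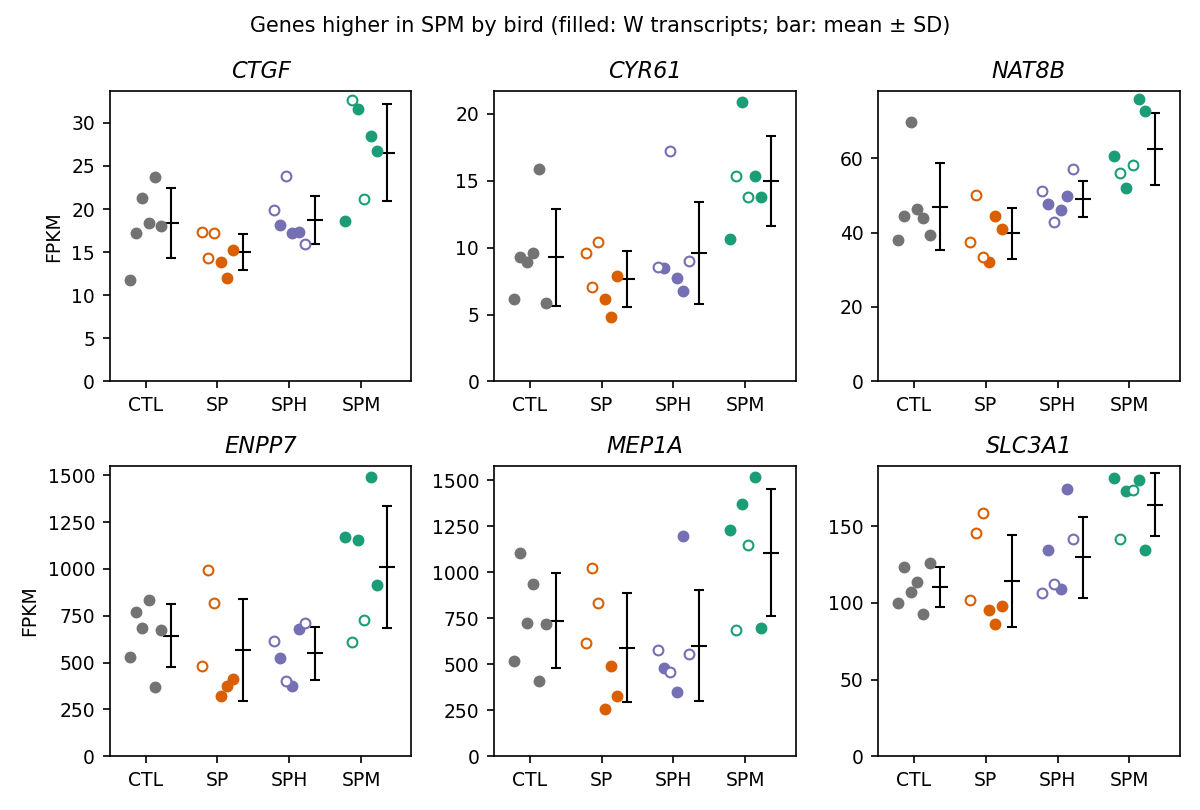
FPKM of 6 genes higher in SPM (y axes) in each bird of the 4 groups (x axes). Each point is a bird, filled where W transcripts were present, and the bar gives the mean ± SD of 6 birds. CTGF lies between 18.6 and 32.6 FPKM in SPM and between 12.0 and 17.3 FPKM in SP.

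Magnolol and honokiol were given at the same dose and sampled at the same age, so the SPM and SPH birds were compared directly, as the only pair of compounds. limma with Benjamini-Hochberg adjustment called 0 of 13454 genes (smallest adjusted p = 0.994), and by limma-voom the count was also 0. At the unadjusted limits 80 genes were higher in SPM (0.595%) and 83 lower (0.617%). At an unadjusted limma p under 0.05 and any fold there were 617 of the 13454 genes, a share below 0.05. The values that follow are sizes of differences with their 95% intervals, none of which passed correction. Many of these genes were named for their difference between the same SPM birds and the SP birds. That choice favours extreme SPM values, so an interval that leaves out 0 is no independent evidence.

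The replication genes had a median log2 difference (SPM minus SPH) of -0.38. Past the unadjusted limits were 3 of 29, all lower in SPM, against 0.617% of all genes. MCM2 had a mean of 12.4 ± 2.5 FPKM in SPM and of 16.4 ± 2.3 FPKM in SPH (SD, n = 6 each), a log2 difference of -0.42 with an interval of -0.68 to -0.16 (unadjusted limma p = 0.00309, exact permutation p = 0.0195). CDCA7L, a gene related to the MYC target CDCA7, differed by -0.43 (-0.66 to -0.21) and SHMT1 by -0.54 (-0.87 to -0.20). CTGF differed by 0.48 (0.17 to 0.80), CYR61 by 0.68 (0.19 to 1.17), ENPP7 by 0.85 (0.29 to 1.42) and MEP1A by 0.93 (0.25 to 1.62). The 17 brush border genes as a list had a smaller median of 0.14. Past the unadjusted limits were 2 of the 17, ENPP7 and MEP1A, against 0.595% of all genes. OLFM4, a marker of crypt base cells in mammals, differed by -1.25 (-2.18 to -0.31). By contrast, the 15 crypt and stem cell genes as a list had a median of -0.03. Of these, 2 were past the unadjusted limits, both lower, against 0.617% of all genes. AGR2, which folds mucins in goblet cells, and SPDEF, a factor of their maturation, differed by -0.68 (-1.25 to -0.11) and -0.59 (-1.05 to -0.14). The 8 goblet cell and mucus genes as a list had a median of -0.26. Past the unadjusted limits were 2 of the 8, both lower, against 0.617% of all genes.

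For the lymphoid lists the medians of the differences between the isomers were near 0, while single genes varied with wide intervals. The median of the B cell and follicle list was 0.02 and that of the T cell list -0.07, with 0 genes of either past the unadjusted limits. For CXCR5 the difference was 0.25 with an interval of -1.62 to 2.12, for CCR7 -0.45 (-1.16 to 0.27), for IL2RA -0.01 (-0.38 to 0.35) and for CD3E -0.00 (-0.36 to 0.35). MAP3K6 differed by 0.02 (-0.26 to 0.30). These intervals leave room for differences as large as their bounds.

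Set beside each other, and sharing the SP birds, the list medians against SP were -0.54 with magnolol and -0.17 with honokiol for replication, -0.79 and -0.82 for B cell and follicle genes, and -0.64 and -0.51 for T cell genes. They were 0.40 and 0.11 for the brush border and 0.40 and 0.10 for the mitochondrial genome. Compared directly (SPM minus SPH), the medians were 0.14 for the brush border and 0.33 for the mitochondrial genome.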

How the data were processed

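The authors deposited FPKM values per gene with chromosome, start, end and length, scaled by size factors. The submitters' processing notes name Bowtie 0.12.2 and the builds mm8 and GRCg6a without a role; other steps were not stated, so coordinates are those of the deposited table. The paper names a NEBNext kit and the labels TruSeq. FPKM times gene length gave whole reads for all 440917 values above 0 (largest deviation 9.92e-05 reads, tolerance 0.001), which gave the depth.

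limma 3.58.1 (R 4.3.3) with an intensity trend was fitted to log2(FPKM + 0.1) over all 24 birds, with contrasts SPM minus SP and SPM minus SPH; the FPKM were not scaled again. Genes needed a mean of 1 FPKM over the 12 birds, so a gene low in 1 group could pass through the other alone. A log2 difference on this scale understates changes of low genes. Single genes had two-sided exact permutation tests. Birds with over 100 summed FPKM of W genes counted as having W transcripts. p-values set a difference in group means against the spread between birds. The code was tested on simulated data. Alternatives were pseudocounts of 1 and 0.01, filters of 0.1 and 5 FPKM or none, the 12 birds alone, total and quantile scaling, array weights, limma-voom on the reads, a replicate block, W transcripts as a covariate, subsets by W transcripts, no Z and W genes, and each bird left out.

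Members and the 46 gene lists were chosen with earlier results of these data known. Named genes were the 15 smallest p in each direction past the fold limit, the 10 largest FPKM differences in each direction with p under 0.05, the 2 most abundant and up to 3 called members in each direction of a list, the 10 largest folds in each direction without overlap, and genes the study names for magnolol; not all are printed. Genes of the W chromosome and entries without symbol were counted only.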

Additional observations from a re-analysis of the deposited data

Results flagged for a closer look

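Dixon's test was run on FPKM in 216 sets of 6 birds (108 named genes in SP and in SPM). In 21 of these sets, or 9.72%, 1 bird stood far from the 5 others. Most of these birds were SP replicate 2 or SPM replicate 5. The share cannot be set against a chance rate of about 1 in 20, which holds for independent sets of normally distributed values. The FPKM were not on the log2 scale of the limma fits, many genes were named for their group differences, and many flags share a bird.

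SP replicate 2 was the lowest SP bird for CDCA7L (15.6 FPKM, others 20.7 to 23.4), ANP32B (110.5, others 127 to 136), MCM3 (9.17, others 13.2 to 15), MCM6 (13.1, others 19.7 to 22.9) and the CCL19 entry ENSGALG00000028256 (43.9, others 72.8 to 89.7). It was the highest SP bird for EDN3 (18.3 FPKM, others 7.02 to 11.1), TDP2, a phosphodiesterase of DNA repair (49.8, others 29.9 to 37.0), UGT1A1 (231, others 101 to 127) and CLDN10, an epithelial claudin (432, others 260 to 318).

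SPM replicate 5 was the highest SPM bird for TNFRSF13C (0.875 FPKM, others up to 0.269), IL21R (5.56, others 1.85 to 3.10), CD72 (2.37, others up to 0.662), the CCL19 entry ENSGALG00000046192 (93.7, others 9.83 to 31.5), CXCL13 (16.3, others up to 5.33), TNFRSF8 (3.48, others up to 0.890) and ITGB7 (8.99, others up to 3.01).

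The 5 remaining values were SHMT1 and RAN in SPM replicate 1 (3.61 FPKM, others 2.48 to 2.89, and 192.5 FPKM, others 141 to 158), MAP3K6 in SP replicate 1 (3.75, others 5.19 to 5.98), DAB2, an endocytic adaptor, in SPM replicate 3 (17.6, others 8.73 to 12.0) and ATP8 in SPM replicate 6 (571, others 323 to 394).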

How the results depend on the processing

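The count at the adjusted limits was 0 under 9 alternatives, 1 with total scaling, with quantile normalization, with array weights and among birds without W transcripts, and 323 among birds with W transcripts; leaving out each bird gave 0 to 204. At the unadjusted limits the 683 genes became 380 with a mean of at least 5 FPKM, 1105 without a filter and 1463 among birds with W transcripts, and 532 to 979 with each bird left out. The 128 genes without overlap became 143 to 456 with a bird fewer, where overlap is less likely by construction. Against SPH the 163 genes became 107 with a pseudocount of 1, and 139 to 223 with each SPM bird left out. No bird of SPH was left out. Among birds without W transcripts the log2 difference changed sign for ENPP7 (-0.14), SAT1 (-0.25), CYP2C23a (-0.00075), HBA1 (-0.0698), JCHAIN (0.22), APOA1 (-0.42), CLDN1 (-0.0844) and FABP1 (-0.22); the cause was not tested. FABP1 ranged from -0.0317 to 0.46 with each bird left out. Of 91 named genes with an exact p under 0.05, 74 kept it without each bird in turn. Among all 13454 genes tested, 2080 had an exact permutation p under 0.05. Many genes were named for their differences in these same birds, so the 74 are no independent support. The smallest exact p is 0.0571 for 4 birds against 3 and 0.2 for 2 against 3, so losses there say nothing. With the replicate number as a block the counts were 1 and 665 against SP and 160 against SPH. The birds share only a number: correlations of same-numbered deviations ran from -0.19 to 0.36, and 1 of 6 SP birds matched its own number best.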

Other observations

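Interferon response genes were lower in 20 of 21 members with a median log2 difference of -0.09 and 0 past the unadjusted limits. Against SPH, 4 of them were past the unadjusted limits, all higher in SPM, beside 0.595% of all genes higher in that contrast. The interferon median against SPH was 0.15. Heat shock proteins and chaperones were lower in 20 of 27 members, with a median of -0.12 and 0 past the limits. Smooth muscle genes were higher in 14 of 15 members with a median of 0.26 and 0 past the limits. Their sums were 3741 and 3948 FPKM in SPM replicates 2 and 6, 2135 to 2784 FPKM in the 4 other SPM birds and 1785 to 2616 FPKM in SP. Genes of the BMP and TGF beta family were higher in 24 of 29 members, with 1 past the limits, against 2.07% of all genes. That gene was GDF6, a ligand of the family, with medians of 1.23 FPKM in SP and 2.08 FPKM in SPM. Circadian clock genes were higher in 14 of 16 members, with 1 past the limits, against 2.07% of all genes. That gene was NPAS2, a partner of BMAL1, with medians of 16.9 and 25.0 FPKM and overlapping groups (exact permutation p = 0.0606).

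The smallest p of all genes belonged to ENSGALG00000034218, an entry without a symbol in the deposited table, on chromosome 33 (7035739 to 7044711). The study names it PA2G4, a protein that binds the receptor ERBB3 and acts in growth control. The rule for named genes leaves out entries without a symbol, and this one is given after its values were seen. It was between 88.5 and 118 FPKM in SP and between 60.8 and 84.8 FPKM in SPM, so that the groups did not overlap, and its log2 difference was -0.55 ± 0.09 (limma adjusted p = 0.0664). SPH and CTL had means of 92.3 and 91.6 FPKM. It was the 1 gene past the adjusted limits under total scaling, quantile normalization, array weights and the replicate block.

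SCG2, a granule protein of endocrine and nerve cells, was between 28.8 and 45.6 FPKM in SP and between 45.6 and 87.4 FPKM in SPM (log2 difference 0.79 ± 0.20, limma adjusted p = 0.0998), and its means were 67.8 FPKM in SPH and 33.9 FPKM in CTL. PANK1, the first enzyme of coenzyme A synthesis, was between 12.8 and 22.7 FPKM in SP and between 19.5 and 27.5 FPKM in SPM (0.57 ± 0.13).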
